A study of Mus musculus with 5 samples.

Results

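Siglecf-positive neutrophils of the mouse kidney, in a study of kidney injury, were described here as the 91 barcodes of a single-cell RNA matrix that held calprotectin RNA and at least 1 unique molecular identifier (UMI) of Siglecf. A barcode was kept with at least 500 UMIs, at least 200 genes and at most 25% of its UMIs on mitochondrial genes. It was called neutrophil when S100a8 and S100a9, which encode the subunits of calprotectin, made up at least 1% of its UMIs, with at most 1 UMI of Lrp2 and 3 of Slc34a1, both genes of the proximal tubule. Of 79202 barcodes that passed the depth, gene and mitochondrial limits, 1191 met these terms, and 91 of them had Siglecf. The other 1100 had 0 Siglecf UMIs and are the comparison barcodes below. The barcodes were thus chosen by their UMIs of Siglecf, S100a8, S100a9, Lrp2 and Slc34a1, and the levels of these genes are a description only. The ratios of other genes describe these barcodes and are given with no test.

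The study asked how the kidney proceeds from an acute injury to lasting damage after unilateral ischemia-reperfusion (UIR). Male C57BL/6J mice aged 6 to 8 weeks had the left renal pedicle clamped for 35 min. Kidneys were taken on days 1, 3, 14 and 28 after UIR and from sham-operated mice, in 5 samples. The labels give each kidney sample as coming from 3 mice, but the study's methods also describe more matrices than there are libraries here, so how mice were joined is not clear. The deposited matrix joins 5 libraries that are told apart only by a numeral, 1 to 5, closing each barcode, and no label used here ties this numeral to a day or to sham. The libraries are therefore given by number, conditions are not compared, and the matrix counts as 1 pooled sample, so that no p-value is given and every interval covers counting error only.

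Neutrophils are short-lived phagocytes that leave the bone marrow with their granules already filled, and that take up a further programme of cytokine and survival genes once inside a tissue. Siglec-F, the product of Siglecf, is a sialic acid-binding receptor with inhibitory motifs, best known on mouse eosinophils and alveolar macrophages. Neutrophils that carry it have been described in tumours, in fibrotic kidney and in inflamed heart and airway tissue, where they are often held to be long-lived.

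Siglecf lies on the forward strand of chromosome 7 (43351341 to 43359531, GRCm38, GENCODE vM21), with no other annotated gene overlapping it. The 250 bases before its RefSeq start (chr7:43351091-43351340, GRCm38.p6, forward strand) are printed because this gene defines the barcodes, and the same stretch before Retnlg (chr16:48872358-48872607, forward strand) because Retnlg had the lowest ratio of the called genes with a UMI in the members of libraries 2 and 4. Capitals mark a match to GAGGAA, the core bound by the myeloid factor PU.1, on either strand.
Siglecf: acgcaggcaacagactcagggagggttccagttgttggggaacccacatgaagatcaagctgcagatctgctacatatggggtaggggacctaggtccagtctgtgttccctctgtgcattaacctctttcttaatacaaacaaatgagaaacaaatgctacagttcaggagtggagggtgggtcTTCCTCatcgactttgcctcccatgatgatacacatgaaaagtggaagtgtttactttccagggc
Retnlg: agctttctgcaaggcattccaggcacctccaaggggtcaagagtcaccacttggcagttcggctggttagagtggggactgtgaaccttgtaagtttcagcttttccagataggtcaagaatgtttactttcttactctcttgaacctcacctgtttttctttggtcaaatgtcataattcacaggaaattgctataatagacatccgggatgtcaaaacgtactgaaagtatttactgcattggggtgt
The Siglecf window held 1 match and the Retnlg window none, and 23.3% of 32851 such windows held at least 1. Searched on both strands, AP-1 (TGANTCA, in 6.75% of windows) had no match in either window.

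Neutrophil genes were present in the members and eosinophil genes were at or near 0. Csf3r, the receptor of the granulocyte growth factor, had a UMI in 60 of 91 members (65.9%) and in 62.1% of comparison barcodes. Cxcr2, the receptor for neutrophil-attracting chemokines, was found in 52.7% and 50.8%. Hdc was found in 65.9% and 66.6%, G0s2 in 74.7% and 76.0%, and Trem1 in 62.6% and 55.7%. Il1r2 was found in 76.9% and 64.6%, and Mmp9 in 70.3% and 57.7%, but Retnlg in 12.1% and 48.2%. These shares pool all libraries, and library 3 held 15 of the 91 members but 502 of the 1100 comparison barcodes. In library 4, Il1r2 was found in 73.1% and 74.6% and Mmp9 in 61.5% and 61.9%. The shares of Il1r2 were 82.6% and 74.5% in library 2 and 66.7% and 54.4% in library 3. Those of Mmp9 were 80.4% and 58.6% in library 2 and 60.0% and 56.2% in library 3. The summed level of the 12 neutrophil identity genes, S100a8 and S100a9 among them, was lower in members. It was 64972 against 104687 UMIs per 1000000 UMIs of the group. The 5 eosinophil genes Epx, Prg2, Prg3, Ear1 and Alox15 were at 0 in both groups, and Ear6, Ccr3 and Il5ra were at 0 in the members, and 0 of 91 allows a share of up to 3.30% of barcodes with a UMI, which does not limit the share of cells that express a gene at low level. Over the list of 9 eosinophil genes the members held 1 UMI, of Cebpe. All 6 basophil and mast cell genes, all 6 T and NK cell genes, all 5 platelet genes and all 5 fibroblast genes were at 0 in the members. Of the alveolar macrophage list, Marco, Ear2, Plet1 and Krt79 were at 0, while the other 3 genes, Chil3, Fabp4 and Car4, gave 23 UMIs in 12 of 91 members (13.2%), against 10.7% of comparison barcodes. Chil3 is also a gene of neutrophils. The summed level of this list, as UMIs per 1000000 UMIs of the group (CPM), was 247 in members against 160 in library 4, 74.7 against 78.6 in library 2, 443 against 438 in library 3, 0 against 43.4 in library 1 and 182 against 264 over all libraries.

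The labels call the cell type of all samples goblet cell. None of 7 goblet genes, among them Muc2 and Tff3, had a UMI in a member, and 1 comparison barcode had 1 UMI of Muc2.

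RNA of other cell types was present in both groups. At least 1 UMI of the 10 proximal tubule genes was found in 97.8% of members and 96.8% of comparison barcodes. At least 3 of these genes were detected in 61 of 91 and 744 of 1100. Their summed level was 4347 CPM in the members of library 2 against 3605 in its comparison barcodes, and 12211 against 11620 in library 4. It was lower in members in library 1, at 1572 against 8317, and in library 3, at 10189 against 13116. For Kap, the most frequent of them, barcodes of at most 100 UMIs, which stand for free RNA, held 11453 to 33697 CPM over the libraries. At least 1 UMI of the macrophage list was found in 47.3% of members and 37.6% of comparison barcodes. Of this list, C1qa, C1qc and Mrc1 were at 0 in the members, Cd68 was found in 15.4% and 14.1%, and Csf1r in 12.1% and 8.55%. The summed level of the 8 macrophage genes was 508 CPM in members against 1114 in library 2, 463 against 1092 in library 4 and 1462 against 492 in library 3. That of the 8 monocyte genes was 134 against 185 in library 2, 247 against 438 in library 4 and 664 against 1008 in library 3. That of the 7 dendritic cell genes was 164 against 644, 92.5 against 209 and 4607 against 262 in the same order, and 674 against 109 in library 1. The part of such RNA in the ratios of Lyz2, Apoe and Cd74, which these cells carry, was not tested.

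**Figure D1:**
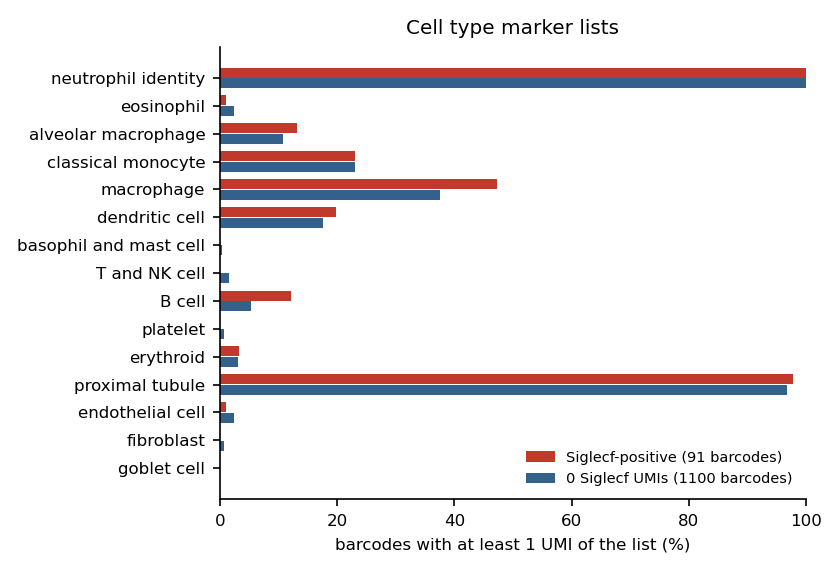
Share of barcodes (in percent, x axis) with at least 1 UMI of each cell type marker list (y axis), in the 91 Siglecf-positive barcodes (red) and the 1100 barcodes with 0 Siglecf UMIs (blue). The neutrophil list holds S100a8 and S100a9, so its 100% is set by the rule, and 97.8% and 96.8% carried proximal tubule RNA, and goblet, fibroblast, platelet, T and NK cell and mast cell genes were at 0 in the members.

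At least 1 UMI of 5 B cell genes was found in 11 of 91 members (12.1%) and in 5.27% of comparison barcodes. Their summed level was 120 against 69.9 CPM in library 2, 92.5 against 27.8 in library 4 and 664 against 50.3 in library 3, but 0 against 65.1 in library 1, where there were 4 members. The part of B cell RNA in the gene ratios was not tested. In library 3 the 15 members had 3012 CPM of Cd74, the invariant chain of MHC class II, against 171 in 502 comparison barcodes. In libraries 2 and 4 the order was the opposite, with 134 against 388 and 92.5 against 125, while the 4 members of library 1 were at 674 against 86.9. Over all members, 3 barcodes held 68 of the 83 Cd74 UMIs, and 1 barcode held 42. The 9 Cd79a UMIs of the members lay in 1 barcode. No doublet caller was run, and doublets were kept in the main comparison. Leaving out each barcode with a UMI of Csf1r, C1qa, C1qb, C1qc, Cd3e, Cd79a, Epx or Prg2 left 77 members.

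Over all libraries, members were about as deep as the comparison barcodes. Their median was 1312 UMIs and 671 genes, against 1252.5 UMIs and 588 genes, and the totals were 126393 and 1519864 UMIs. The members' depth ran from 556 to 4072 UMIs. Within libraries 1, 2 and 4 members were deeper, with medians of 1031.5 against 874, 1377.5 against 1286.5 and 1224 against 1102.5 UMIs. In library 3 the medians were 1316 and 1323.5 UMIs. The part of depth in shares that were not thinned was not tested. Barcode sequences recurred between libraries in 642 of 78554 cases. This concerned 1 of the 91 members, and no member shared its sequence with another neutrophil barcode.

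Siglecf itself was sparse. Of the 91 members, 77 had 1 Siglecf UMI, 11 had 2, 2 had 3 and 1 had 6. With 14 members above 1 UMI, most of the membership rested on a single molecule, so a barcode with 0 UMIs may come from a cell that expressed the gene. Among neutrophil barcodes, Siglecf was seen in 14 of 313 (4.47%) with 500 to 1000 UMIs, in 70 of 774 (9.04%) with 1000 to 2000, in 6 of 83 (7.23%) with 2000 to 4000 and in 1 of 21 (4.76%) with more. After every barcode was thinned to 500 UMIs, 41 of 1191 neutrophil barcodes (3.44%, exact 95% interval 2.48 to 4.64) still held Siglecf. The same thinning left Siglecf in 1 of 1219 barcodes rich in C1q (0.0820%) and in 1 of 19873 barcodes with at least 5 Lrp2 UMIs (0.00503%). As sequenced, those shares were 0.574% and 0.111% at median depths of 4366 and 8029 UMIs, against 7.64% at 1260 UMIs in the neutrophil barcodes. In free RNA Siglecf made up 0 to 0.692 CPM.

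The share of Siglecf-positive barcodes differed between libraries. It was 4 of 54 (7.41%, exact 95% interval 2.06 to 17.9) in library 1, 46 of 466 (9.87%, 7.32 to 12.9) in library 2, 15 of 517 (2.90%, 1.63 to 4.74) in library 3 and 26 of 152 (17.1%, 11.5 to 24.1) in library 4. Library 5 held 2 neutrophil barcodes, both without Siglecf. The interval of library 3 lay below those of libraries 2 and 4, which overlapped each other, and that of library 1 overlapped all of them. Median depths in comparison barcodes were 874, 1286.5, 1323.5 and 1102.5 UMIs in libraries 1 to 4, and the part of depth in these shares was not tested. Over all libraries the share was 7.64% (6.20 to 9.30), and without library 3 it was 11.3%.

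Siglecf-positive barcodes had less calprotectin RNA. S100a8 and S100a9 made up a median of 3.71% of UMIs in members and 6.76% in comparison barcodes, with 3.35% against 5.36% in library 2, 5.44% against 8.95% in library 3 and 2.72% against 4.92% in library 4. All of these barcodes lay above the 1% limit, which is part of the rule. Siglecf was found in 25 of 203 barcodes (12.3%) with 1 to 2% calprotectin RNA, in 27 of 222 (12.2%) with 2 to 4%, in 20 of 257 (7.78%) with 4 to 8% and in 19 of 509 (3.73%) with 8% or more. Within library 2 the shares in the same order were 14.5%, 14.0%, 7.69% and 6.29%, and within library 4 they were 29.4%, 18.4%, 19.4% and 4.55%.

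**Figure D2:**
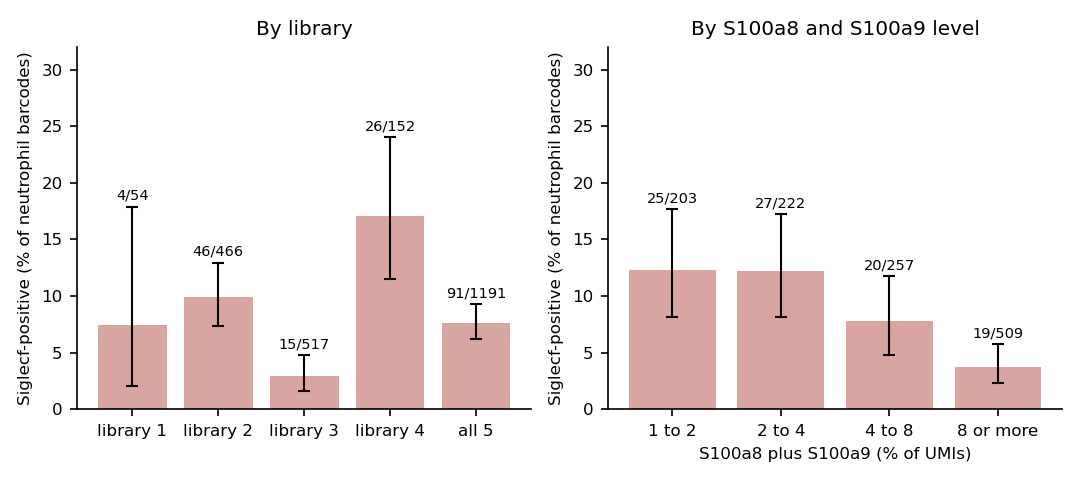
Siglecf-positive barcodes as a percentage of neutrophil barcodes (y axis), by library (left) and by the share of UMIs on S100a8 and S100a9 over all libraries (right). Bars start at 0, lines are exact 95% binomial intervals and fractions give the barcodes counted. The share ran from 2.90% in library 3 to 17.1% in library 4, and from 12.3% in the lowest to 3.73% in the highest calprotectin class.

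Members also spread their UMIs over more genes. At 500 UMIs per barcode a median of 329 genes was seen in members and 298 in comparison barcodes. The medians were 315 against 282 in library 2, 329 against 308 in library 3, 339 against 316 in library 4 and 333.5 against 278 in library 1, where there were only 4 members. The direction was the same in all 4 libraries with members. Members had a smaller share of their UMIs on S100a8 and S100a9, which are genes of the rule. The gene count was not repeated without them. The part of this share, of doublets and of the choice by a sparse gene was not tested. In library 2 the middle 50% of barcodes ran from 284 to 337 genes in members and from 255.75 to 308 in the comparison, so single barcodes of the groups overlapped.

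Genes were compared between members and comparison barcodes within the libraries that had at least 20 of each, libraries 2 (46 and 420 barcodes) and 4 (26 and 126). UMI rates were combined over these libraries as a Mantel-Haenszel ratio, which weights each library by its counts. A gene passed the rule when the ratio was at least 2-fold, the direction was the same in both libraries and at least 50 UMIs were counted. Of 1960 genes with enough UMIs, 77 (3.93%) were at least 2-fold higher and 123 (6.28%) at least 2-fold lower in members, which makes 10.2% in either direction. The median log2 ratio of all tested genes was 0.10. The UMI numbers given beside ratios below count libraries 2 and 4 only, unless all members are named. Many of these calls rest on few molecules. In the members, 45 of the 123 lower genes had 3 or fewer UMIs and 48 of the 77 higher genes had 20 or fewer. The minimum of 50 UMIs counts both groups together. Members held 66937 UMIs against 572568 in library 2 and 32430 against 143724 in library 4. A lower gene could thus reach the minimum on comparison barcodes alone, and the number lower against higher is not read here. Among the 574 genes with at least 200 UMIs, 8 were higher and 24 lower. Library 3 took no part in the calls, and there 82 of the 123 lower genes were below and 41 above the comparison, while 41 of the 77 higher genes were above and 36 below. With library 2 alone 26 of the 77 and 75 of the 123 genes passed, and with library 4 alone, where 511 genes could be tested, 6 and 14 did.

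Some named differences were larger in library 4 than in library 2, and others were smaller. Mrpl42 and Tmem14c were among the smaller ones, with log2 ratios of 1.51 and 1.06 in library 4 against 2.28 and 1.92 in library 2. In library 2 alone the log2 ratio was 1.03 for Ltc4s against 2.42 in library 4, 0.89 against 1.88 for Icam1 and 0.62 against 1.96 for Tgfbr1. Among lower genes it was -2.35 against -7.51 for Retnlg, -1.45 against -4.26 for Slpi, -0.85 against -2.91 for S100a6 and -0.98 against -2.26 for Slc7a11. Icam1, Tgfbr1, S100a6 and Slc7a11 thus did not reach 2-fold in library 2 alone. Cxcl3 (-0.52), Cd74 (-0.44), Lrg1 (-0.75) and Lyz2 (-0.88) did not reach it in library 4 alone. For Ltc4s, Icam1 and Tgfbr1 the intervals of libraries 2 and 4 overlapped. The library 4 ratio of Retnlg rests on 1 UMI in the members.

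**Figure D3:**
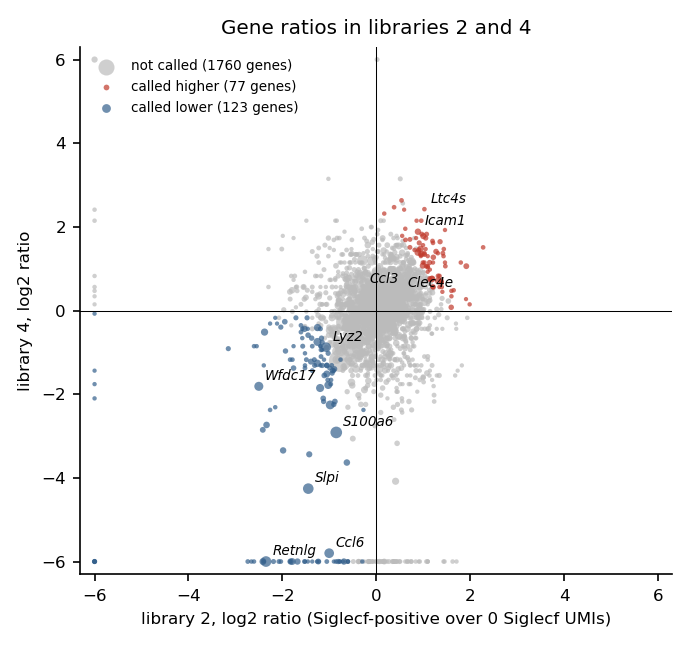
Log2 ratio of the UMI rate, Siglecf-positive over 0 Siglecf UMIs, in library 2 (x axis) and library 4 (y axis) for the 1960 genes tested. Point area grows with the number of UMIs, 77 genes called higher are red, 123 called lower are blue, and genes at 0 in a group or beyond 6 are drawn at the edge. The lower genes include the most abundant called ones, such as Retnlg, Slpi, S100a6 and Ccl6.

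Granule and secreted defence genes were the group most often lower. Of 28 genes on the list 17 had enough UMIs, and 9 of them were at least 2-fold lower and none higher, beside 6.28% lower over all genes, with a median log2 ratio of -1.0 against 0.10 over all tested genes. Retnlg, a resistin-like protein of neutrophils, was at 373 CPM in the members of library 2 and 1902 in its comparison barcodes, and at 30.8 and 5629 in library 4. It was lower in both libraries and 11.3-fold lower overall (95% counting interval 8.06 to 18.2). The groups differed in the share of barcodes as well as in level. A Retnlg UMI was found in 11 of 91 members (12.1%) and in 530 of 1100 comparison barcodes (48.2%), and at 500 UMIs per barcode in 7.69% and 39.3%. In library 3 the levels were 4873 and 7185 CPM, much closer than in libraries 2 and 4. Of the 136 Retnlg UMIs in members, 3 barcodes held 110 (80.9%).

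Retnlg was also counted by classes of calprotectin level, each with few members. In library 2, Retnlg was found in 0 of 11, 2 of 16, 1 of 9 and 2 of 10 members with 1 to 2, 2 to 4, 4 to 8 and 8% or more of calprotectin RNA. The comparison barcodes of the same classes had it in 4 of 65, 16 of 98, 28 of 108 and 96 of 149. In library 4, 1 of 10, 0 of 7, 0 of 7 and 0 of 2 members had it, against 6 of 24, 5 of 31, 10 of 29 and 29 of 42. The share was lower in members than in comparison barcodes in each of these 8 classes, several of which held under 10 members.

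Slpi, Wfdc17 and Wfdc21, genes of the whey acidic protein family, were also lower in members of libraries 2 and 4. Slpi, the secretory leukocyte protease inhibitor, was at 941 CPM in members against 2567 in library 2 and at 123 against 2359 in library 4 (3.62-fold lower, 2.88 to 4.77), but at 1905 against 2035 in library 3. Wfdc17 was at 209 against 1184 and at 555 against 1948 (4.50-fold lower, 3.14 to 6.57), and at 3101 against 5031 in library 3. Wfdc21 was at 74.7 against 398 in library 2, and had no UMI in the members of library 4, where the comparison level was 654. In library 3 it was at 1107 against 1280, so Slpi and Wfdc21 differed less there than in libraries 2 and 4. The cystatin-like Stfa2l1 was at 74.7 against 377 and at 61.7 against 411, and reads of it may be shared with near-identical stefin genes.

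Of the other granule products tested, 4 passed the rule, and all 4 were lower. Lcn2, which encodes the iron-binding protein NGAL, was at 403 against 924 CPM in library 2 and 154 against 557 in library 4, and at 2747 against 2285 in library 3, where the order was the opposite. Lyz2, lysozyme, was at 792 against 1659 in library 2, 956 against 1753 in library 4 and 1861 against 3290 in library 3. Lrg1 was 2.18-fold lower over libraries 2 and 4 (1.54 to 3.15), but was at 797 against 660 in library 3 and 674 against 499 in library 1, higher in members. Mmp8, the neutrophil collagenase, had 2 UMIs in the members and 64 in the comparison in libraries 2 and 4 (4.98-fold lower, 1.32 to 42.2), and 4 and 324 over all libraries. Mmp9, the gelatinase of the tertiary granules, did not follow, at 1628 against 1048 in library 2 and 1480 against 1155 in library 4. Cyba, Hp, Pglyrp1, Chil3, Anxa1, Arg2 and Mcemp1 did not pass the rule either. Genes of the primary granules, Mpo, Elane and Ctsg, had no UMI in members and were too sparse to compare.

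**Figure D4:**
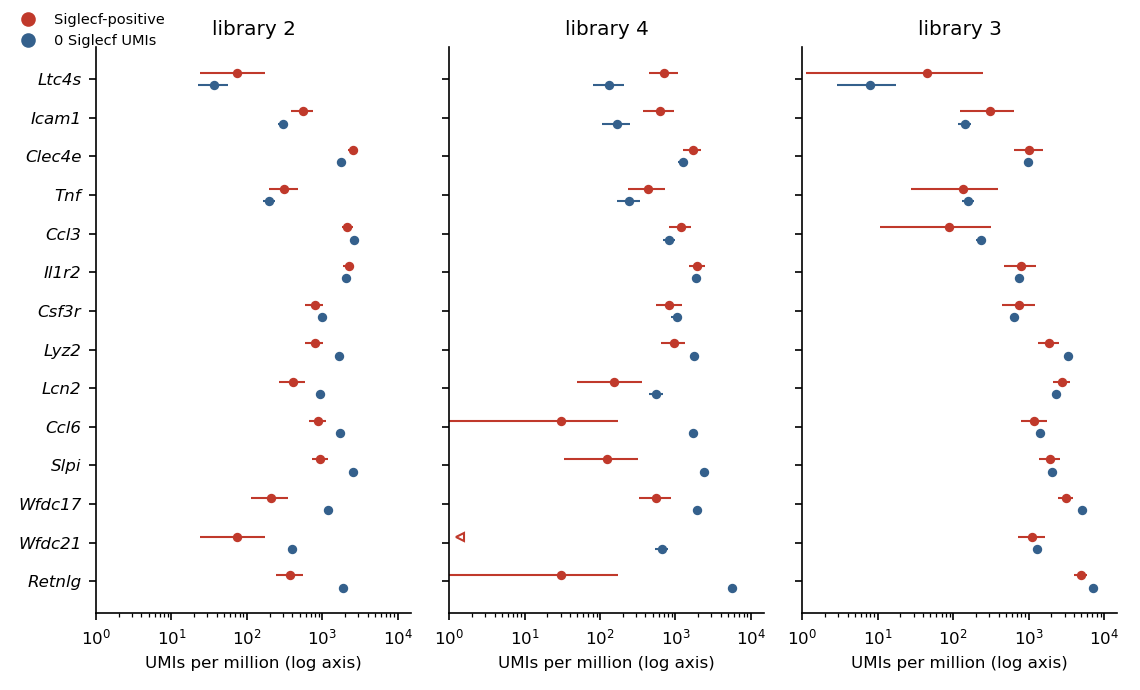
Levels of named genes per library as CPM (x axis, logarithmic), in Siglecf-positive barcodes (red) and barcodes with 0 Siglecf UMIs (blue). Lines are exact 95% Poisson intervals and an open triangle at the left marks 0 UMIs. Retnlg stood at 373 and 1902 in library 2, at 30.8 and 5629 in library 4 and at 4873 and 7185 in library 3.

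Genes for release from the marrow and homing were mixed. Of 17 listed, 14 were tested, 3 were lower and 1 higher, beside 6.28% and 3.93% over all genes. Itgal, the alpha chain of LFA-1, had 6 UMIs in members and was 2.53-fold lower (1.13 to 7.11), and Jaml, an adhesion molecule, had 4 and was 5.78-fold lower (2.22 to 21.6). Jaml ran the opposite way in library 3, at 310 against 112 CPM, and over all libraries had 11 UMIs in members. Icam1 was the higher gene. Cxcr4, the marrow-homing receptor that rises as neutrophils age, was at 164 against 178 in library 2 and 185 against 125 in library 4 (ratio 1.05, 0.593 to 1.76). Cd44 and Cd24a did not pass the rule.

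Icam1 encodes the adhesion molecule that binds LFA-1. It was at 553 against 299 CPM in library 2, 617 against 167 in library 4 and 310 against 143 in library 3, and had no UMI in the 4 members of library 1, where the comparison was at 130 (2.22-fold higher, 1.6 to 2.97). An Icam1 UMI was found in 32 of 91 members (35.2%) and 17.5% of comparison barcodes. No barcode held more than 5 of its 64 UMIs. Another annotated gene overlaps Icam1 on chromosome 9.

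The remaining genes of the NF-kB list, in which Icam1 stands, did not pass the rule. Of 18 tested, 1 was higher and none lower, beside 3.93% and 6.28% over all genes, and the median log2 ratio was 0.24. Nfkbia, the inhibitor induced by NF-kB, was at 3630 against 3641 CPM in library 2 and 4656 against 3291 in library 4. Tnfaip2 was at 1733 against 1939 and at 1634 against 1106. Nfkbiz was at 657 against 961 and at 524 against 501. Each of these had its members above the comparison in 1 library and below or level in the other.

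The chemokine Ccl3, a proposed marker of these cells, was not higher in them. Ccl3 was at 2151 CPM in the members of library 2 and 2604 in the comparison, at 1172 and 828 in library 4, and at 88.6 and 236 in library 3. The ratio over libraries 2 and 4 was 0.899 (0.767 to 1.05). Over all libraries a Ccl3 UMI was found in 30 of 91 members (33.0%) and 23.6% of comparison barcodes, and at 500 UMIs per barcode in 23.1% and 17.2%. By library the shares were 45.7% and 37.6% in library 2, 26.9% and 25.4% in library 4 and 6.67% and 12.5% in library 3. A few barcodes carried much of it, since 3 members held 63 of the 189 Ccl3 UMIs and 61 members had none. Its neighbour Ccl4 was at 2405 against 2953 in library 2 and 925 against 404 in library 4. Of the 30 members with Ccl3, 17 also had Ccl4, of 22 with Ccl4 in all.

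Other CC chemokine genes differed from this. Ccl6, a chemokine of myeloid cells, was at 866 against 1736 CPM in library 2 and 30.8 against 1719 in library 4 (2.83-fold lower, 2.22 to 3.81), with 1196 against 1436 in library 3. Ccrl2, a chemokine-binding receptor, was at 4691 against 3111 in library 2 and 3114 against 1893 in library 4, a ratio of 1.54 (1.38 to 1.71) that did not reach 2-fold. Of 5 genes of the list with enough UMIs 1 passed the rule, beside 6.28% lower over all genes.

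Of 4 CXC genes tested 1 was lower, Cxcl3, beside 6.28% over all genes. Cxcl3 was at 120 against 622 CPM in library 2 and 185 against 264 in library 4, and above the comparison in library 3, at 576 against 218. Cxcl2, which like Cxcl3 attracts neutrophils through Cxcr2, was at 12026 against 14295 in library 2 and 24360 against 14591 in library 4. Cxcr2 was at 598 against 814 and at 617 against 661.

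Of 10 cytokine and growth factor genes tested, only Osm passed the rule, beside 6.28% lower over all genes. Osm, a cytokine of the interleukin-6 family, was at 120 against 382 CPM in library 2 and at 0 against 111 in library 4, from 8 UMIs in the members. Tnf was at 314 against 197 in library 2, 432 against 244 in library 4 and 133 against 157 in library 3 (ratio 1.65, 1.11 to 2.41). Il1b, the most abundant of them by UMIs, was at 12355 against 11478 and at 12334 against 8579. Il1rn was at 1389 against 1490 and at 648 against 285. Il6, Csf2 and Il12b had no UMI in either group within libraries 2 and 4.

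Among 18 cytokine receptors tested, Tgfbr1, the type I receptor of TGF-beta, was higher on 14 UMIs, at 105 against 68.1 CPM in library 2 and 216 against 55.7 in library 4 (2.16-fold, 1.07 to 3.94). It was the 1 receptor gene called, near the 3.93% higher over all genes. It was found in 17.6% of members and 6.0% of comparison barcodes. The decoy receptor Il1r2 was at 2226 against 2043 and at 1943 against 1858. Csf3r was at 792 against 1001 and at 833 against 1044. Csf2rb, a chain of the GM-CSF receptor, was at 807 against 625 and at 401 against 348.

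None of 14 lectin receptors, Fc receptors and adaptors tested passed the rule. Siglecf defines the groups and was not tested. Clec4e, which encodes the C-type lectin Mincle, was at 2540 against 1755 CPM in library 2, 1696 against 1273 in library 4 and 1019 against 994 in library 3. Its ratio was 1.42 (1.22 to 1.64), but in library 4 alone the interval of the log2 ratio, -0.05 to 0.86, included no difference. Over all libraries Clec4e was found in 71.4% of members and 61.5% of comparison barcodes, or 50.5% and 41.9% at 500 UMIs per barcode. By library the shares were 76.1% and 71.0% in library 2, 57.7% and 60.3% in library 4 and 73.3% and 55.8% in library 3. Tyrobp and Fcer1g, adaptors of such receptors, were at 7092 against 7208 and at 3639 against 3263 CPM in library 4. Of 65 members with Clec4e and 17 with Tnf, 14 had both.

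None of 17 survival and death genes tested passed the rule. Their median log2 ratio was 0.24, against 0.10 over all genes, and 4 of the 17 were below 0. Bax had a ratio of 1.94 (1.18 to 3.05) and Cdkn1a 1.78 (1.46 to 2.15), short of 2-fold. Casp4 was at 0.530 (0.168 to 1.31). These 3 genes were chosen after their values were seen. Gadd45b was at 3227 against 2941 CPM in library 2 and 1881 against 1120 in library 4, Btg2 at 3765 against 3797 and 1542 against 2226, and Btg1 at 2316 against 2461 and 1326 against 1739. Immediate early genes had a median of -0.09 over 22 tested, and none passed. Junb was at 4586 against 4506 in library 2 and 3269 against 3221 in library 4, close together in both. Fos was at 1359 against 1602 and 863 against 946.

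Ltc4s, which encodes leukotriene C4 synthase, had the highest ratio of the genes called. It was at 74.7 against 36.7 CPM in library 2, 709 against 132 in library 4 and 44.3 against 7.94 in library 3 (4.08-fold higher, 2.33 to 6.61, on 28 against 40 UMIs). Of the 28 UMIs in members, 23 were in library 4 and 5 in library 2. In library 2 the interval of the log2 ratio, -0.74 to 2.47, included no difference. The library 3 level rested on 1 UMI. Of the 29 Ltc4s UMIs in all members, 3 barcodes held 14 (48.3%). An Ltc4s UMI was found in 15 of 91 members (16.5%) and 31 of 1100 comparison barcodes (2.82%). At 500 UMIs per barcode the shares were 7.69% and 2.0%, against 0.0503% in proximal tubule barcodes and 1.48% in barcodes rich in C1q. Of 15 members with Ltc4s and 11 with Retnlg, 1 had both. Ltc4s was most frequent in members low in calprotectin, with 9 of 25 at 1 to 2%, 4 of 27 at 2 to 4%, 2 of 20 at 4 to 8% and 0 of 19 at 8% or more. In comparison barcodes the shares in the same order were 6.74%, 5.64%, 1.69% and 0.816%. Another annotated gene overlaps Ltc4s on chromosome 11. No other of 9 eicosanoid and checkpoint genes tested passed, beside 3.93% higher over all genes, and Alox5ap, which feeds the same pathway, was at 1016 against 1085 in library 2 and 1048 against 1030 in library 4.

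Of 24 lysosomal genes tested, 1 was higher and none lower, near the 3.93% higher over all genes. Atp6v0c, which encodes a subunit of the proton pump that acidifies lysosomes, was not called, nor were the protease inhibitor Cstb and the protease Ctsd. The median log2 ratio of the lysosomal list was 0.10, that of all genes.

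**Figure D5:**
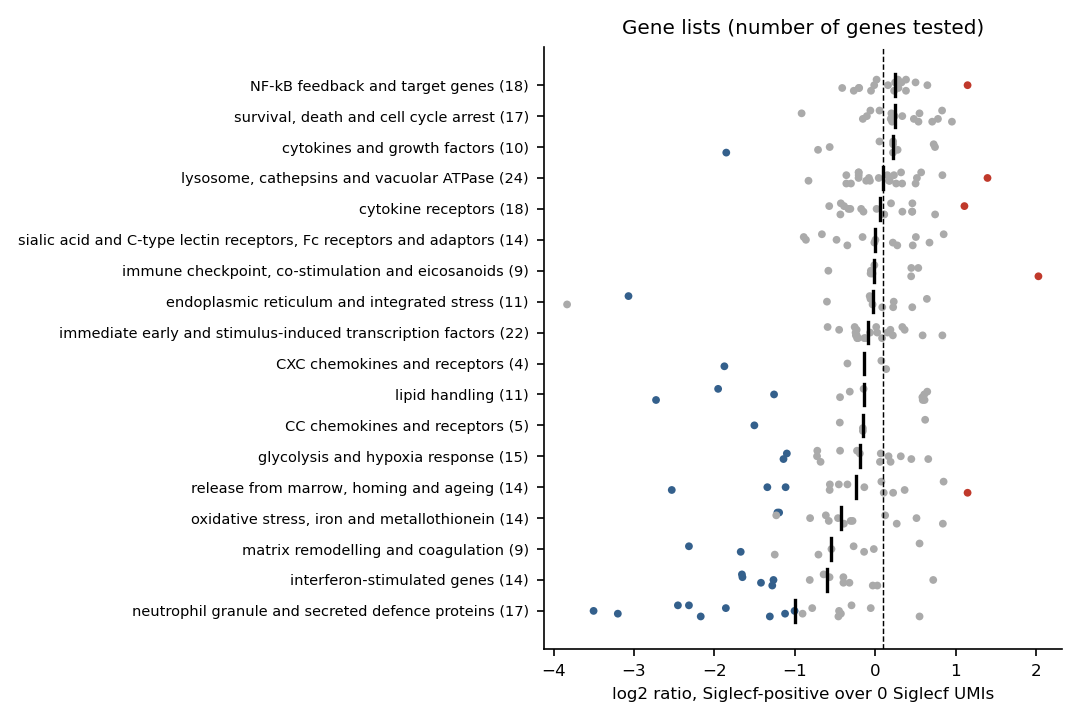
Log2 ratio (x axis, Siglecf-positive over 0 Siglecf UMIs, libraries 2 and 4 combined) of each tested gene by gene list (y axis, with the number tested). Red and blue points passed the rule as higher and lower, grey ones did not, black bars are list medians and the dashed line is the median of all 1960 genes, 0.10. Granule genes lay lowest, with a median of -1.0.

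Interferon-stimulated genes had the next lowest median. Of 14 tested, 5 were at least 2-fold lower, beside 6.28% over all genes, none was higher and the median log2 ratio was -0.61. The 5 were counted on few UMIs. Rtp4 had 3 in the members and 71 in the comparison, Trim30b 6 and 139, Isg20 4 and 82, Slfn4 8 and 150, and Oasl2 5 and 84. The interval of Oasl2 included no difference (0.986 to 7.61-fold lower), and Slfn4 was at 177 against 160 CPM in library 3. The well-counted Ifitm2 was at 3600 against 4766 CPM in library 2 and 3392 against 3632 in library 4. Ifitm1 was at 2166 against 2300 and at 2405 against 2261, and Ifitm3 at 523 against 985 and 555 against 828.

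The glycolysis and the oxidative stress list each held 2 lower genes, of 15 and 14 tested, beside 6.28% over all genes. The lactate exporter Slc16a3 was at 388 against 789 CPM in library 2 and 123 against 424 in library 4 (2.21-fold lower, 1.53 to 3.32), and the glucose transporter Slc2a3 was lower on 6 UMIs with an interval that included no difference (0.950 to 5.99). The other 13 glycolysis and hypoxia genes tested did not pass, with Gapdh at 1688 against 1181 and 1788 against 1830. The cystine transporter Slc7a11 was at 642 against 1268 in library 2 and 185 against 884 in library 4 (2.29-fold lower, 1.73 to 3.14). Hmox1, heme oxygenase, was lower on 7 UMIs. The ferritin genes did not pass, with Fth1 at 37408 against 49881 in library 2 and 21184 against 25855 in library 4.

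Fabp5, Dgat2 and Apoe were the lower genes of 11 lipid genes tested, beside 6.28% lower over all genes. Fabp5 and Dgat2 had 2 UMIs each in the members. Apoe was at 269 against 643 CPM in library 2 and 247 against 591 in library 4, but at 1152 against 308 in library 3, and its direction turned when barcodes with UMIs of other cell types were left out. Against the same 6.28%, Sesn2 was the called gene of 11 endoplasmic reticulum genes, on 1 UMI in the members, and Mmp8 and F10 those of 9 matrix and coagulation genes, on 2 each. The interval of F10 included no difference (0.845 to 27.4-fold lower).

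The 10 called genes with the highest ratio, mitochondrial, ribosomal protein, Gm and Rik genes aside, were led by Ltc4s. Tmem14c, a mitochondrial protein of heme synthesis, was the best counted of them. It was at 568 against 150 CPM in library 2, 493 against 237 in library 4 and 310 against 205 in library 3, and was found in 28.6% of members and 9.91% of comparison barcodes at 500 UMIs per barcode. Mrpl42, of the mitochondrial ribosome, was at 254 against 52.4 and at 278 against 97.4. It was at 44.3 against 168 in library 3, on 1 UMI in members. Serbp1, an mRNA-binding protein, was at 314 against 122 and at 370 against 118. The other 6 were Snw1, Cuta, Lsm6, Gstm1, Banf1 and Ppig, with 14 to 22 UMIs in members and ratios of 2.65 to 3.05. In library 4 alone the log2 ratio was 0.15 for Lsm6 and 0.27 for Banf1. In library 3 Snw1 was at 44.3 against 54.3 CPM, Cuta at 0 against 101, Gstm1 at 177 against 197 and Ppig at 44.3 against 60.9. These lower values in members rest on 1, 0, 4 and 1 UMIs, too few to give a direction.

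Of the 10 called genes with the lowest ratio, by the same terms and with genes at 0 UMIs set to 3 counts, Retnlg, Wfdc21 and Jaml have been described. Tm6sf1, Zfp869, Sesn2, Nop53 and S100a10 each had 1 UMI in the members of libraries 2 and 4 and 54 to 76 in the comparison, and Fabp5 had 2 and 98. In library 3 Nop53 was at 177 against 51.6 CPM, Tm6sf1 at 133 against 84.7 and Zfp869 at 88.6 against 41.0. These higher values in members rest on 4, 3 and 2 UMIs, too few to give a direction. The heat shock gene Hspa1a, chosen after its values were seen, had a lower ratio still (log2 -3.83, on 2 against 222 UMIs) but was not called, since libraries 2 and 4 differed in direction. For these 5 genes with 1 UMI the intervals began at 1.32 to 1.89-fold and ended at 307 to 437-fold, so the sizes are not known.

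The called genes with at least 200 UMIs over both groups that are not yet named were chosen after their values were seen. Since most UMIs are those of the comparison barcodes, a lower gene could reach 200 on these alone, and the number lower against higher is not read here. The higher ones included, beside Icam1, Gngt2 at 747 against 299 CPM in library 2 and 956 against 584 in library 4, Cd300c2 at 568 against 307 and 709 against 271, and Igfbp6, Rps27l, Rpl22 and Rbx1. Gngt2, a G protein subunit, was found in 60.4% of members and 23.8% of comparison barcodes, and Cd300c2, an activating receptor of the CD300 family, in 51.6% and 23.0%. In library 3 the direction was the same in 7 of the 8 higher genes, all but Rps27l. Rpl22 has processed copies in the genome that could share its reads. Among the 24 lower genes, S100a6 was at 2017 against 3640 in library 2, 463 against 3486 in library 4 and 3012 against 4633 in library 3 (2.33-fold lower, 2.0 to 2.80). Rdh12, Cstdc4, Il1f9 and Gda were between 3.63-fold and 4.78-fold lower on 7 to 9 UMIs in members. In library 3 the direction was the same in 16 of the 24 lower genes.

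Members just inside and just outside the limits were alike in part. Among barcodes with Siglecf, 16 had 1 to 1.5% calprotectin RNA and 11 had 0.5 to 1%. Csf3r was found in 11 of the 16 and 9 of the 11, Il1r2 in 11 and 8, Ltc4s in 5 and 4, and Retnlg in 0 and 1. The 77 members with 1 Siglecf UMI had Ltc4s in 13, Icam1 in 28 and Retnlg in 10, and the 14 with more had them in 2, 4 and 1.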

How the data were processed

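The authors deposited raw UMI counts per gene and barcode, made with Cell Ranger 6.0 on mm10 according to the submitters' processing notes and merged over 5 libraries without cell calling: 32285 genes, with 82426945 to 139382799 UMIs per library. The members and gene lists were chosen with earlier results of these data known. Levels are CPM, UMIs per 1000000 UMIs of the group in a library. Doublets were kept. No column belonged to a sample of another series. Ratios were combined over libraries 2 and 4 by Mantel-Haenszel weights. The limit for a count of 0 is 3 counts. A gene with no UMI in 1 group was set to 3 counts, a bound. Intervals are exact (Clopper-Pearson for shares, Poisson for levels, conditional over libraries for ratios), at 95%, and cover counting error only. Genes were named when they were rule markers, Clec4e or Tnf, among the 10 highest or lowest ratios of called genes (without mitochondrial, ribosomal protein, Gm and Rik genes), or the up to 4 largest called and 3 most counted uncalled genes of a list, and others were chosen after their values were seen. Thinning to 500 UMIs drew UMIs without replacement (seed 1). The scripts (Python 3.11.15, numpy 2.4.6, scipy 1.17.1, pandas 2.3.3) were tested on simulated data. Upstream sequences, found for 2 of 2 symbols, are from RefSeq (GRCm38.p6), and gene positions from GENCODE vM21. Some genes are not reported here.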

Additional observations from a re-analysis of the deposited data

Results flagged for a closer look

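A Siglecf signal lay outside the barcodes compared above. Of 437 barcodes with a Csf3r or Cxcr2 UMI but less than 1% calprotectin RNA, 38 (8.70%, exact 95% interval 6.23 to 11.7) had Siglecf, and 14 after thinning to 500 UMIs, against 1 of 19873 thinned proximal tubule barcodes. They lay in library 2 (23), library 4 (10) and library 3 (5). C1qa, a macrophage gene, had a UMI in 0 of these 38 and in 83 of the others. Il1r2 was found in 26 of the 38, at 1458 CPM against 289 in the barcodes without Siglecf, Ltc4s in 11, at 497 against 60.8, and Icam1 in 16, at 593 against 260. Retnlg was found in 4 of the 38 and in 16 of the others, at 112 against 32 CPM. The others held more antigen presentation RNA, with Cd74 at 7977 CPM against 529 and H2-Eb1 at 2419 against 128, and the part of the cell make-up in these values was not tested. These barcodes were left out by the calprotectin limit, and with a limit of 0.5% the members numbered 102.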

How the results depend on the processing

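No paired analysis was possible because the labels give each sample the same replicate number, no label ties a library to a sample, and no test was run. With 1 pooled sample and 1 Siglecf UMI in most members, neither spread between mice nor missed Siglecf molecules can be measured, and free RNA, doublets and calprotectin level were not separated from the ratios.

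Members numbered 33 (4.85%, as the Siglecf-positive share of neutrophil barcodes) with at least 5% calprotectin RNA, 14 (1.26%) with at least 2 Siglecf UMIs, 41 (3.44%) when Siglecf had to remain after thinning, and 45 with Lrp2 and Slc34a1 at 0. Gene ratios could not be computed for the first 3, since no library kept enough barcodes. Leaving out each library in turn gave 45 to 91 members, shares of 6.21 to 11.3%, 21 to 77 higher genes and 39 to 128 lower genes, the lowest counts being without library 2. Higher and lower genes numbered 34 and 58 after thinning (10 and 23 shared with the counts in the report), 211 and 308 without strata (41 and 69 shared), 8 and 24 with at least 200 UMIs, and 310 and 319 with at least 20, and higher genes 48 with Lrp2 and Slc34a1 at 0. A minimum of 10 barcodes in each group brought in library 3 and gave 109 and 184, with 28 and 66 shared. Causes were not tested, except that the UMI minimum and thinning set how many genes are tested.

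The log2 ratio turned direction without barcodes holding other cell types' UMIs for Apoe (0.53). With Lrp2 and Slc34a1 at 0 it was 0.20 for Zfp869 and 0.094 for Sesn2. Only library 2 was used there, and its members had no UMI of either gene. These values are therefore bounds from 3 counts and give no direction. Leaving out 1 library gave -3.06 to 0.27 for Nop53, -2.92 to 1.15 for S100a10, -1.67 to 1.15 for F10 and -1.95 to 2.15 for Dgat2. The upper value of each is again such a bound, since the members of the library left had no UMI of the gene. With at least 5% calprotectin RNA and 10 barcodes per library, chosen after seeing the data, the log2 ratio was -0.10 for Snw1, 0.33 for Tm6sf1, 1.18 for Zfp869, 0.43 for Sesn2, 0.60 for S100a10, 2.01 for F10 and 1.11 for Apoe. Only library 2 was used here as well, so the values of Zfp869 and Sesn2 are bounds. Tm6sf1 and S100a10 had at most 1 UMI in its members. Of 17 alternatives scored for each named gene, Retnlg, Wfdc21 and Stfa2l1 passed the rule in 17, Ccl6 and Osm in 16, Icam1 in 13 and Ltc4s in 11. Banf1 passed in 6, Snw1 and Zfp869 in 7, Lsm6 and Sesn2 in 8, and Cuta, Mrpl42, Nop53 and Tgfbr1 in 9. A gene also failed where an alternative left it too few UMIs to be tested. Ppig passed in 12 although its log2 ratio was never below 1.23. That of Retnlg ran from -7.51 to -1.69.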
